A study of Mus musculus with 4 samples.

Results

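The genes described here carry glucose into the cell and take it through glycolysis to pyruvate and lactate, together with the enzymes that hand pyruvate to the mitochondria, that run the pathway backwards, or that open the oxidative pentose phosphate branch. They are 35 genes, picked by mouse gene symbol from a count table of 31227 Ensembl gene IDs, in which they occupy 36 rows because Aldoa has 2 IDs. The table holds the RNA sequencing reads counted per gene in colonic epithelial cells, for 2 Smad4 KO libraries and 2 WT libraries. The Smad4 KO mice lacked Smad4, the shared signal mediator of the TGF-β and BMP families, in the epithelium, and the WT mice were their comparison. The sources used here do not give the driver of the deletion or whether animals were pooled. Mice of both genotypes were 8 to 10 weeks old and had received dextran sulfate sodium (DSS), a detergent-like polymer that injures the colonic epithelium, at 3.5% in drinking water for 5 days, with plain water until they were killed on day 7. Every library therefore comes from injured colon, and animals without DSS are not part of the data used here.

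Glucose enters epithelial cells either down its gradient through GLUT carriers or together with sodium through SGLT1, and hexokinase traps it by phosphorylation. Phosphofructokinase sets much of the pace of the pathway and is turned up by fructose-2,6-bisphosphate, which the PFKFB enzymes make and degrade. Pyruvate is either reduced to lactate and exported with a proton or oxidised by pyruvate dehydrogenase, which the PDK kinases switch off. In the colon, bacterial butyrate is the main fuel of mature surface cells, while cells at the crypt base and cells under inflammatory or hypoxic stress rely more on glucose.

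Levels are given as CPM, gene counts scaled to a common library size after TMM, a normalization that sets the bulk of genes equal between libraries. Both libraries of a genotype are given in place of a mean and SD, with Smad4 KO libraries in the order 1 and 2 and WT libraries in the order 1 and 3. Where genes are compared with each other, CPM was divided by the length of the gene's merged exons in kilobases (RPKM). Changes are log2 fold changes of Smad4 KO over WT with their standard error (SE), and a gene is said to have risen or fallen where the adjusted p of edgeR's quasi-likelihood test was under 0.05. Nothing in the labels ties each library to a mouse of its own. The p-values then measure only how far these libraries spread, and that spread may be technical.

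Total counts were 61260099 and 67927291 in Smad4 KO libraries and 56018009 and 42577920 in WT libraries, so that 1 count was worth 0.015 to 0.0229 CPM. Smad4 itself had 51.5 and 41.1 CPM in Smad4 KO libraries, against 152 and 179.8 CPM in WT libraries (log2 fold change -1.84, SE 0.143, adjusted p = 0.00163), which fits the labels while leaving counts in both knockout libraries. Markers of epithelium summed to 15798 and 16325 CPM in Smad4 KO libraries and 15920.5 and 15486 CPM in WT libraries, a sum carried by Krt8 and Krt19. Among all genes tested 8.83% rose and 6.40% fell, the shares to set beside the marker counts that follow. Of these 8 markers 4 rose, Krt20 by 1.65-fold, Cdx2 by 1.5-fold, Epcam by 1.23-fold and Krt18 by 1.22-fold, and Krt19 fell (log2 fold change -0.23). Of 7 tested neutrophil markers 5 rose, and the list summed to 439.5 and 427 CPM in Smad4 KO libraries and 129.9 and 103 CPM in WT libraries, most of it Ly6g, while Mpo, Elane and Camp had no count in any library. Ly6g rose 3.09-fold, less than the other risen neutrophil markers. In WT libraries it had 116 and 93.3 CPM, where S100a8 had 3.72 and 1.72 CPM. Whether the Ly6g reads came from neutrophils was not tested. S100a8 rose 15.9-fold, S100a9 11-fold, Cxcr2 6.72-fold and Csf3r 3.56-fold, so the sum understates their rises. Macrophage and monocyte markers summed to 187 and 181 CPM in Smad4 KO libraries and 174 and 193 CPM in WT libraries, but most of that was Cd14, the only marker of the 10 with a lower level in Smad4 KO libraries. The other 9 summed to 50.7 and 47.3 CPM in Smad4 KO libraries and 15.2 and 11.4 CPM in WT libraries, and 3 of the 10 rose. Fibroblast markers summed to 62.9 and 73.2 CPM in Smad4 KO libraries and 33.3 and 38.9 CPM in WT libraries, with 2 of 8 risen. T cell markers had 14.1 and 14.3 CPM in Smad4 KO libraries and 6.51 and 7.62 CPM in WT libraries. The 1 of 8 that passed, Cd4, had 24 and 28 counts in Smad4 KO libraries and 0 in both WT libraries, entered the test through the Smad4 KO libraries alone, and lost its call in all 4 fits with a library left out. Red blood cell markers had 9.32 and 9.83 CPM in Smad4 KO libraries and 0.846 and 2.02 CPM in WT libraries, with 1 of 4 risen. Endothelial, smooth muscle and B and plasma cell markers stayed under 9 CPM in sum in every library with none past the test. Mitochondrial genes took 5.4% and 5.22% of counts in Smad4 KO libraries and 4.51% and 4.16% in WT libraries, and the nuclear RNA Malat1 took 0.0305% and 0.0265% in Smad4 KO libraries and 0.0605% and 0.0813% in WT libraries. The part of these other cells, of the mix of epithelial cells and of RNA quality in the changes described here was not tested.

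Of the 35 rows tested, 10 rose and 3 fell in Smad4 KO epithelium. The risen genes were Slc2a1, Hk2, Gpi1, Pfkl, Pfkfb3, Tpi1, Pgk1, Eno1, Ldha and Slc16a3, and the fallen ones were Slc5a1, Pfkm and Pdk2. These are 28.6% and 8.57% of the rows, beside 8.83% risen, 6.40% fallen and 15.2% in either direction among all 15838 genes tested. Many members are abundant, so that small changes can pass, and no share was taken over genes of like level. The median log2 fold change was 0.21 over the members and 0.00747 over all genes tested, and 24 of the 35 rows were higher in Smad4 KO libraries. Added together, the members made up 9625 and 9996 CPM in Smad4 KO libraries and 8231 and 8005 CPM in WT libraries, a split by genotype that the mitochondrial and Malat1 shares given above also show. Because these are bulk samples, fewer cells of a type and less RNA per cell cannot be told apart. The count of risen members was 5 without Smad4 KO library 1 and 4 without Smad4 KO library 2, and the count of fallen members was 0 and 1. The 4 members that kept their call whichever library was left out were Slc2a1, Hk2, Pfkfb3 and Slc16a3.

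**Figure D1:**
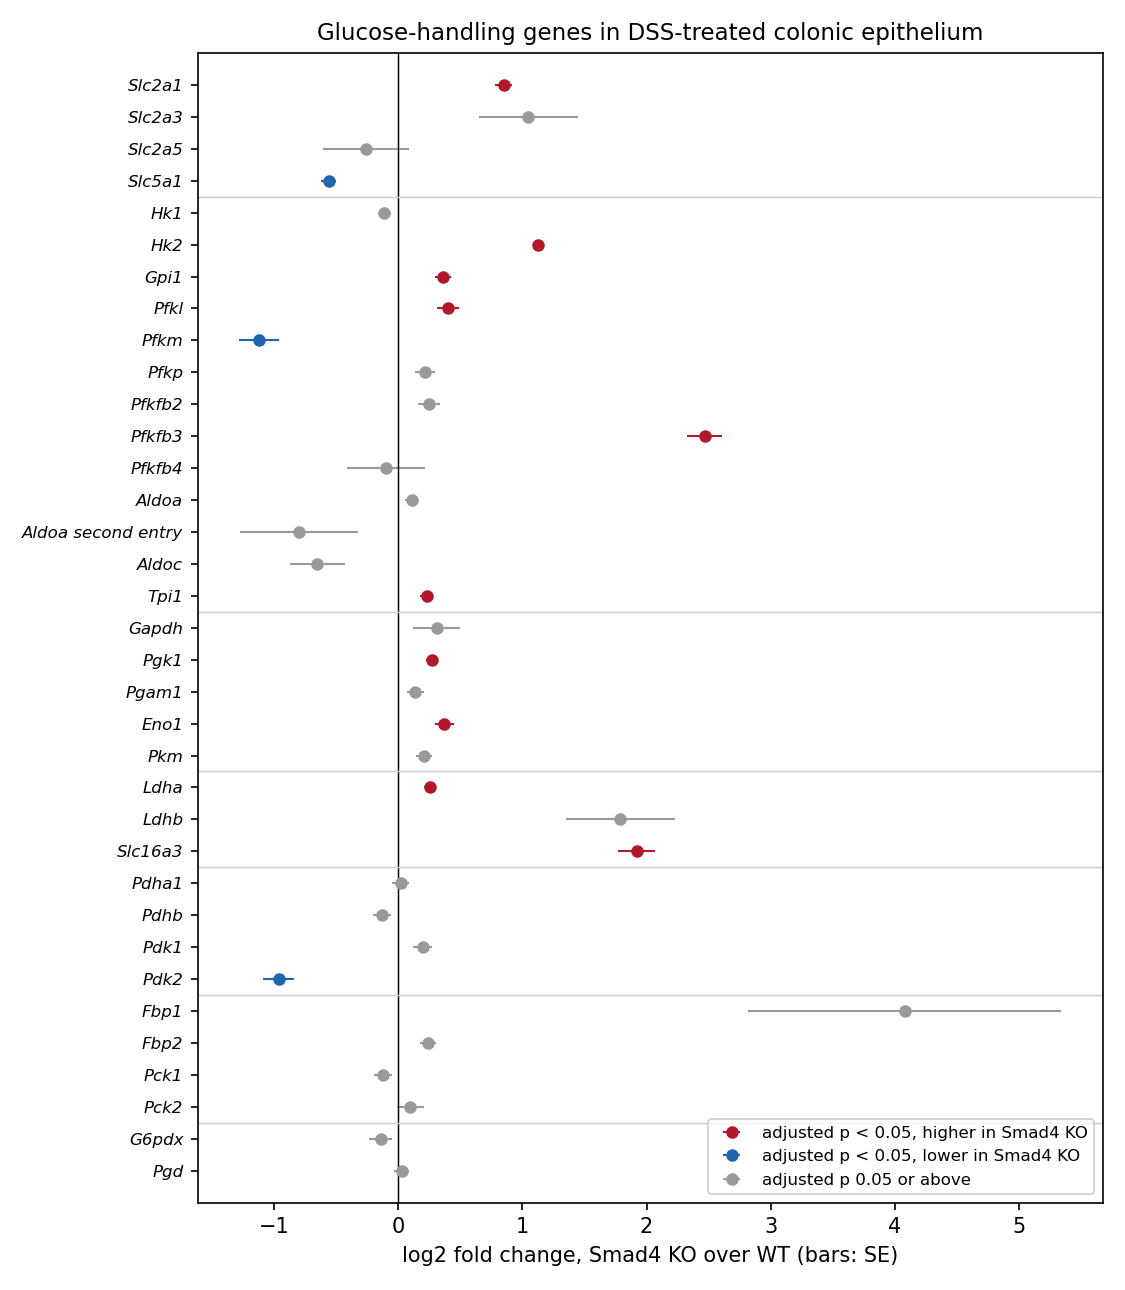
Log2 fold change of Smad4 KO over WT for the 35 tested rows, in pathway order from carriers at the top to the pentose phosphate branch at the bottom, with horizontal lines between steps and bars for the SE. Red points rose, blue points fell and grey points did not pass edgeR's test. Pfkfb3, Slc16a3 and Hk2 lie farthest right among the red points, at 2.47, 1.92 and 1.13, and the grey point at 4.08 is Fbp1, which had 0.839 CPM or less in every library.

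The promoters of 6 members are shown to set side by side the 4 risen members that kept their call whichever library was left out and 2 of the 3 fallen members, the carrier and the kinase. The third fallen member, Pfkm, a minor subunit with the largest fall of the 3, is not shown. Each stretch comes from RefSeq (GRCm38.p6) and runs from 250 bases before to 20 bases after the most upstream annotated start, on the gene's own strand. Capitals mark ACGTG and GCGTG on either strand, the core letters of the element bound by hypoxia-inducible factors. The stretches are chr4:119108495-119108764 on the plus strand for Slc2a1, chr6:82774435-82774704 on the minus strand for Hk2, chr2:11553910-11554179 on the minus strand for Pfkfb3, chr11:120948817-120949086 on the plus strand for Slc16a3, chr5:33103969-33104238 on the plus strand for Slc5a1 and chr11:95041352-95041621 on the minus strand for Pdk2.
Slc2a1: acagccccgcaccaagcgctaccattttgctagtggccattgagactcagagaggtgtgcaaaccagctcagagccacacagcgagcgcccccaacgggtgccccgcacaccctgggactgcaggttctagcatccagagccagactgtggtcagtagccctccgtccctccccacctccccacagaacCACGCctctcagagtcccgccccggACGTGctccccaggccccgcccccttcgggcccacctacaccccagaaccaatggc
Hk2: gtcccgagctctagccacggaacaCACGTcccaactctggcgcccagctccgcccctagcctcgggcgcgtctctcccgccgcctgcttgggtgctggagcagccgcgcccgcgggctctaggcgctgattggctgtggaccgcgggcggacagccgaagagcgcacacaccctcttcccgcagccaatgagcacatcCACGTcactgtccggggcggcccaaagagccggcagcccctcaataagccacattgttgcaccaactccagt
Pfkfb3: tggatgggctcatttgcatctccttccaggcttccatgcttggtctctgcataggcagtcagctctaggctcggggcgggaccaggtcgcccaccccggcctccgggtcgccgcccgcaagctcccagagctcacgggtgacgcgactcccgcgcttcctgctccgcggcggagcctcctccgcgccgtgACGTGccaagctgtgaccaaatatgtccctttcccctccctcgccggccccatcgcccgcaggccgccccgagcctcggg
Slc16a3: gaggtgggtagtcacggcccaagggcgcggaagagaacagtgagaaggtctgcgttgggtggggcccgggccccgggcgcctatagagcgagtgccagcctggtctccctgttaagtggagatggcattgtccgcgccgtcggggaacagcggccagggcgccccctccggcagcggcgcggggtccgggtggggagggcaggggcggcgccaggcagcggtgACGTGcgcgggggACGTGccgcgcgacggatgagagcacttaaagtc
Slc5a1: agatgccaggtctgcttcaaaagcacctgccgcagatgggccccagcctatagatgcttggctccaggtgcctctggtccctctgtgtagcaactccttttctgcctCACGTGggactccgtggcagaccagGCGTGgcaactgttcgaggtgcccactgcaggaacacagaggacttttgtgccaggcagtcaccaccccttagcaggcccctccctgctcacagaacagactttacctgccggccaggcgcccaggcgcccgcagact
Pdk2: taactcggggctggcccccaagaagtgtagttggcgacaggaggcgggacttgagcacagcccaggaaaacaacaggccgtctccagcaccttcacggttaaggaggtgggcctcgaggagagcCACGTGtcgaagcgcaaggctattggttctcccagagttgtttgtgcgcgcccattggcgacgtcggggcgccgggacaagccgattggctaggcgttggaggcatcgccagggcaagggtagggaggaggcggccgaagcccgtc

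RefSeq windows reaching 50 bases past the start were found for 34 of the 35 members, the exception being Slc2a3, and some members have several windows, 51 in all. The core letters occurred in 38 of these 51 windows, or 74.5%, and in 43.8% of all 32851 mouse windows of the same 300 bases. Both strings of letters contain CG, and the windows were not matched for base content. Some windows of the same gene also overlap, so the gap between these shares does not measure enrichment. Counted by gene, the core letters occurred in the most upstream window of 25 of the 34 members and in any window of 28. A count by gene over all mouse genes was not made for these letters. In the most upstream window they were found in 8 of 10 risen genes, 14 of 20 tested genes that did not pass and 3 of 3 fallen genes. In Slc16a3 the letters occur 2 times within a short distance just before the start, and in Slc5a1 and Pdk2 the 2 ACGTG matches are the 2 strands of a single CACGTG. The letters CAGAC on either strand, the core bound by SMAD proteins, occurred in 21 of the 51 windows of members, or 41.2%, and in 49.6% of all windows. By gene, 13 of the 34 members had them in the most upstream window and 18 in any window. A match is a description of the sequence and not a bound site.

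Among the carriers, the main GLUT rose and the sodium-coupled carrier fell. Slc2a1 encodes GLUT1, the basal glucose carrier of most cells (chromosome 4, 119108711 to 119137983, plus strand), and had 285 and 314 CPM in Smad4 KO libraries, against 167 and 165 CPM in WT libraries. Both Smad4 KO libraries stood above both WT libraries, a 1.8-fold rise (log2 fold change 0.85, SE 0.0703, adjusted p = 0.00193). Slc5a1 encodes SGLT1, the sodium-glucose cotransporter of the luminal membrane (chromosome 5, 33104219 to 33162870, plus strand). It had 141 and 147 CPM in Smad4 KO libraries, against 210 and 214 CPM in WT libraries, and fell (log2 fold change -0.56, SE 0.0605, adjusted p = 0.00454; 0.0502 without Smad4 KO library 1). Per exon length, Slc2a1 made up 69.7% and 70.9% of the summed RPKM of the 5 carriers in Smad4 KO libraries and 47.8% and 46.9% in WT libraries, and Slc5a1 made up 29.6% and 28.4% in Smad4 KO libraries and 51.4% and 52.0% in WT libraries. The summed level of the 5 carriers was 116 and 126 RPKM in Smad4 KO libraries and 99.6 and 100 RPKM in WT libraries.

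The other carriers were scarce. Slc2a3, the high-affinity GLUT3 of neurons and white blood cells, had 2.06 and 1.39 CPM in Smad4 KO libraries and 0.864 and 0.803 CPM in WT libraries, and did not pass the test (log2 fold change 1.05, SE 0.395, adjusted p = 0.150). The fructose carrier Slc2a5 had 1.80 and 2.52 CPM in Smad4 KO libraries and 2.05 and 3.12 CPM in WT libraries, with the groups overlapping. Slc2a2, the low-affinity GLUT2 of liver and small intestine, had at most 0.12 CPM in Smad4 KO libraries and 0.0882 CPM in WT libraries and was too low to be tested.

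At the steps that trap glucose and set the pace, Hk2 and Pfkfb3 rose well beyond the spread of the libraries. Hk2, a hexokinase that docks on mitochondria and is inducible in many tissues (chromosome 6, 82725025 to 82774454, minus strand), had 973 and 985 CPM in Smad4 KO libraries and 447 and 449 CPM in WT libraries. This was a 2.18-fold rise (log2 fold change 1.13, SE 0.0458, adjusted p = 0.000289), and it ranged from 1.11 to 1.14 on the log2 scale when each library was left out. Hk1, the housekeeping hexokinase, had 310 and 323 CPM in Smad4 KO libraries and 345 and 340 CPM in WT libraries and did not pass (log2 fold change -0.11, SE 0.0548, adjusted p = 0.240). The log2 ratio of Hk2 over Hk1 per exon length was 2.16 and 2.12 in Smad4 KO libraries and 0.89 and 0.92 in WT libraries, a difference of 1.24 (exact permutation test, two-sided, p = 0.33, the smallest that 2 against 2 libraries can give). Hk2 thereby made up 77.9% and 77.6% of the summed hexokinase RPKM in Smad4 KO libraries and 62.4% and 63.2% in WT libraries. Measured on the longest transcript of each gene, the mean share of Hk2 was 66.9% in Smad4 KO libraries and 48.5% in WT libraries.

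Pfkfb3 encodes the PFKFB isoform with the highest kinase over phosphatase activity, and so the one that most favours fructose-2,6-bisphosphate (chromosome 2, 11471433 to 11554077, minus strand). It had 84.9 and 75.1 CPM in Smad4 KO libraries and 12.9 and 16.0 CPM in WT libraries, the largest rise of the risen members at 5.56-fold (log2 fold change 2.47, SE 0.141, adjusted p = 0.00067). Its sister isoforms did not pass. Pfkfb2 had 47.1 and 45.1 CPM in Smad4 KO libraries and 40.3 and 37.5 CPM in WT libraries (adjusted p = 0.138). Pfkfb4 had 23.7 and 25.4 CPM in Smad4 KO libraries and 17.7 and 35.1 CPM in WT libraries, the WT pair lying on either side of the Smad4 KO pair (adjusted p = 0.869). Of the summed RPKM of the 4 Pfkfb genes, Pfkfb3 held 48.1% and 45.4% in Smad4 KO libraries and 14.9% and 13.9% in WT libraries, and the sum was 23.4 and 21.8 RPKM in Smad4 KO libraries and 11.4 and 15.2 RPKM in WT libraries. Neutrophils also use Pfkfb3, and 5 of 7 tested neutrophil markers rose, as given above. The part of neutrophils in the rise of Pfkfb3 was not tested.

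The phosphofructokinase subunits moved apart. Pfkl, the liver-type subunit and the most abundant here per exon length (chromosome 10, 77986947 to 78010083, minus strand), had 247 and 263 CPM in Smad4 KO libraries and 207 and 179 CPM in WT libraries. It rose (log2 fold change 0.40, SE 0.0893, adjusted p = 0.0406), but the call was lost without either Smad4 KO library, without WT library 3, and on library totals (adjusted p = 0.0535). Pfkm, the muscle-type subunit (chromosome 15, 98092589 to 98132451, plus strand), had 4.61 and 4.47 CPM in Smad4 KO libraries and 10.4 and 9.34 CPM in WT libraries and fell (log2 fold change -1.12, SE 0.160, adjusted p = 0.0104), a call lost without either Smad4 KO library. It was a minor subunit in both genotypes, at 2.20% and 2.04% of the summed RPKM of the 3 subunits in Smad4 KO libraries and 5.81% and 5.35% in WT libraries. Pfkp, the platelet-type subunit, had 327 and 333 CPM in Smad4 KO libraries and 265 and 303 CPM in WT libraries and did not pass (log2 fold change 0.22, SE 0.0798, adjusted p = 0.141). Exons of Pfkp overlap 748 bases of Pitrm1 on the opposite strand, so the reads of that stretch cannot be assigned without strand.

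Between these control points the upper pathway showed small rises. Gpi1, which turns glucose-6-phosphate into fructose-6-phosphate (chromosome 7, 34201330 to 34230336, minus strand), had 676 and 744 CPM in Smad4 KO libraries and 550 and 555 CPM in WT libraries (log2 fold change 0.36, SE 0.0630, adjusted p = 0.0197). Tpi1, which interconverts the triose phosphates (chromosome 6, 124810586 to 124814296, minus strand), had 424 and 426 CPM in Smad4 KO libraries and 361 and 365 CPM in WT libraries (log2 fold change 0.23, SE 0.0502, adjusted p = 0.0397). Both rose; the call of Gpi1 was lost without either Smad4 KO library, and that of Tpi1 also without WT library 1 and on library totals (adjusted p = 0.083). Aldoa, the main aldolase here, had 958 and 1000 CPM in Smad4 KO libraries and 927 and 890 CPM in WT libraries and did not pass (log2 fold change 0.11, SE 0.0502, adjusted p = 0.228). Its second Ensembl entry held 1.31 and 0.675 CPM in Smad4 KO libraries and 1.43 and 2.04 CPM in WT libraries. Aldoc, the brain-type aldolase, had 10.6 and 8.29 CPM in Smad4 KO libraries and 17.4 and 12.4 CPM in WT libraries (log2 fold change -0.65, SE 0.221, adjusted p = 0.118).

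In the lower pathway the mean of each of the 5 enzymes was higher in Smad4 KO libraries, and 2 passed the test. Pgk1, the first of the ATP-making steps (chromosome X, 106187100 to 106203699, plus strand), had 551 and 554 CPM in Smad4 KO libraries and 455 and 459 CPM in WT libraries, and rose (log2 fold change 0.27, SE 0.0479, adjusted p = 0.0199). Eno1, the widely expressed enolase (chromosome 4, 150236721 to 150248879, plus strand), had 612 and 702 CPM in Smad4 KO libraries and 513 and 506 CPM in WT libraries, and rose (log2 fold change 0.37, SE 0.0767, adjusted p = 0.0340). The call of Pgk1 was lost without either Smad4 KO library, and that of Eno1 without either WT library, without Smad4 KO library 2 and on library totals (adjusted p = 0.0533). Pkm, which makes pyruvate, had 1168 and 1208 CPM in Smad4 KO libraries and 1088 and 971 CPM in WT libraries and did not pass (log2 fold change 0.21, SE 0.0669, adjusted p = 0.107). Pgam1, the phosphoglycerate mutase, had 288 and 292 CPM in Smad4 KO libraries and 250 and 276 CPM in WT libraries (adjusted p = 0.248). The rises of these enzymes were at most 1.29-fold.

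Several of these enzymes have near-identical copies in the genome, and how the counting treated reads that match more than 1 gene is not stated in the labels. In the transcripts annotated by GENCODE, 53.9% of the 50-base words of Pgk1 also occur in other genes, 36.2% of those of Pgam1, 26.0% of those of Eno1, 25.8% of those of Pkm and 25.1% of those of Gapdh. For Hk2, Slc5a1, Slc16a3, Pdk1 and Pdk2 the share was 0. Gapdh, the enzyme between Tpi1 and Pgk1 and a common reference gene, had only 28.7 and 32.9 CPM in Smad4 KO libraries and 28.9 and 20.6 CPM in WT libraries, or means of 7.45 and 5.99 RPKM, beside 246 and 204 RPKM for Pgk1. It shares words with 223 other genes, of which 213 are pseudogenes, and it did not pass the test (log2 fold change 0.31, SE 0.186, adjusted p = 0.33). The level of Gapdh in this table is therefore uncertain, and so are those of Pgk1, Pgam1, Eno1 and Pkm. The same limit holds over a smaller part of Ldhb, Gpi1 and Ldha.

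**Figure D2:**
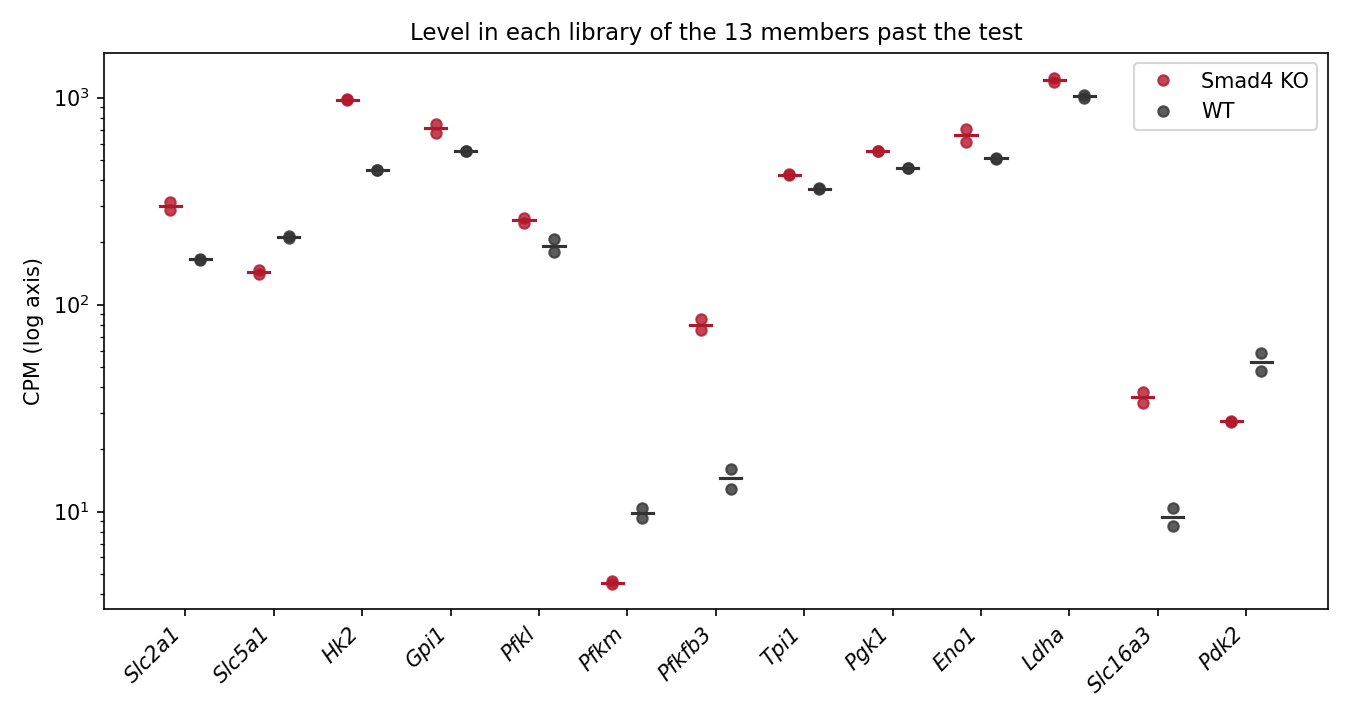
CPM on a log axis for the 13 members that passed edgeR's test, with each point a library and the short line the mean of the 2 libraries of a genotype, Smad4 KO in red to the left of WT in black. The genes were chosen by that test, so the lack of overlap between their groups adds nothing to it. Groups of members that did not pass, such as Hk1 and Aldoa, do not overlap either. The widest gaps are those of Pfkfb3 (84.9 and 75.1 CPM in Smad4 KO libraries, 12.9 and 16.0 CPM in WT libraries) and Slc16a3 (33.4 and 37.9 CPM in Smad4 KO libraries, 10.4 and 8.51 CPM in WT libraries).

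At the lactate step, the exporter changed far more than the enzyme. Ldha, which reduces pyruvate to lactate (chromosome 7, 46841475 to 46855627, plus strand), stood at 1190 and 1241 CPM in Smad4 KO libraries and 1029 and 999 CPM in WT libraries. It rose by 0.26 on the log2 scale (SE 0.0474, adjusted p = 0.0223), a call lost without either Smad4 KO library. Per exon length its mean of 367 RPKM was the highest of all members in Smad4 KO libraries, and its mean of 306 RPKM in WT libraries came just after the 312 RPKM of Aldoa. Slc16a3 encodes MCT4, the lactate exporter of strongly glycolytic cells (chromosome 11, 120948480 to 120960868, plus strand). It had 33.4 and 37.9 CPM in Smad4 KO libraries and 10.4 and 8.51 CPM in WT libraries, a 3.77-fold rise (log2 fold change 1.92, SE 0.146, adjusted p = 0.00151; range 1.79 to 2.05 when each library was left out). Ldhb, the heart-type subunit, had 4.29 and 3.48 CPM in Smad4 KO libraries and 0.705 and 1.56 CPM in WT libraries and missed the threshold (log2 fold change 1.79, SE 0.438, adjusted p = 0.0533). Ldha held 99.2% and 99.4% of the summed RPKM of both subunits in Smad4 KO libraries and 99.9% and 99.7% in WT libraries. MCT4 is also a carrier of activated white blood cells, whose markers are given above; their part in the rise of Slc16a3 was not tested.

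At the entry to the mitochondria, the subunits of pyruvate dehydrogenase showed no change past the test and 1 of its kinases fell. Pdha1 had 276 and 274 CPM in Smad4 KO libraries and 283 and 257 CPM in WT libraries (adjusted p = 0.864), and Pdhb had 102 and 100 CPM in Smad4 KO libraries and 115 and 107 CPM in WT libraries (adjusted p = 0.285). Exons of Pdha1 overlap 603 bases of Map3k15 on the opposite strand. Pdk2, a widely expressed kinase that inactivates the complex (chromosome 11, 95026258 to 95041354, minus strand), had 27.2 and 27.4 CPM in Smad4 KO libraries and 58.5 and 47.7 CPM in WT libraries. It fell (log2 fold change -0.96, SE 0.124, adjusted p = 0.00768), a call lost without either Smad4 KO library. Pdk1, the kinase known as a target of hypoxia-inducible factor, had 91.8 and 90.7 CPM in Smad4 KO libraries and 75.7 and 82.9 CPM in WT libraries and did not pass (log2 fold change 0.20, SE 0.0759, adjusted p = 0.148). The log2 ratio of Pdk2 over Pdk1 per exon length was -0.45 and -0.43 in Smad4 KO libraries and 0.93 and 0.50 in WT libraries. Pdk1 and Pdk2 thus changed places in order (exact permutation test, two-sided, p = 0.33, the smallest possible). Pdk3 lies outside the members and the rule for named genes. It held 33.2% and 35.4% of the summed RPKM of the Pdk kinases in Smad4 KO libraries and 29.5% and 32.1% in WT libraries.

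None of the 4 gluconeogenic members passed the test. Fbp2, the muscle-type fructose-1,6-bisphosphatase and the most abundant of them per exon length, had 138 and 142 CPM in Smad4 KO libraries and 121 and 117 CPM in WT libraries (log2 fold change 0.24, SE 0.0646, adjusted p = 0.0718). Fbp1, the liver-type enzyme, had 0.665 and 0.839 CPM in Smad4 KO libraries, which are 40 and 56 counts, against 0 and 0.0917 CPM in WT libraries, which are 0 and 4 counts. It passed the filter on low counts through the Smad4 KO libraries alone and missed the threshold (adjusted p = 0.0941). The phosphoenolpyruvate carboxykinases stayed close, Pck1 with 77.7 and 79.5 CPM in Smad4 KO libraries and 82.8 and 87.8 CPM in WT libraries (adjusted p = 0.334). Pck2, the mitochondrial form, had 38.0 and 34.1 CPM in Smad4 KO libraries and 35 and 32.4 CPM in WT libraries (adjusted p = 0.605).

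The oxidative pentose phosphate enzymes, which make NADPH, did not pass either. G6pdx, its gatekeeper, had 96.9 and 93.0 CPM in Smad4 KO libraries and 112 and 96.8 CPM in WT libraries (log2 fold change -0.14, SE 0.0917, adjusted p = 0.391), and its exons overlap 418 bases of Ikbkg on the opposite strand. Pgd had 384 and 383 CPM in Smad4 KO libraries and 390 and 360 CPM in WT libraries (log2 fold change 0.03, SE 0.0613, adjusted p = 0.779).

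Outside the 35 members, 116 further genes of glucose metabolism and its regulation were found in the table and 102 were tested. Of these, 14 rose (13.7%, beside 8.83% of all genes) and 18 fell (17.6%, beside 6.40%), with a median log2 fold change of 0.02. Without Smad4 KO library 1 these counts were 6 and 8, and without Smad4 KO library 2 they were 5 and 7. Of the genes named from these lists, Eno3, Eno1b, Hkdc1, Hk3, Slc5a8, Pdp2, Ldhd, Pygb, Akr1b3, Galm, Egln3 and Ppargc1a kept their call whichever library was left out, and each of the others that passed lost it without at least 1 library. Among other glycolytic enzymes 4 of 16 rose (25%) and 2 fell (12.5%). Eno3, the muscle-type enolase, had 12.4 and 13.7 CPM in Smad4 KO libraries, against 206 and 212 CPM in WT libraries, and fell 16.0-fold (log2 fold change -4.00, SE 0.0859, adjusted p = 5.2e-05). Eno1b, annotated as a retrogene copy of Eno1, had 223 and 229.9 CPM in Smad4 KO libraries and 56.2 and 53.9 CPM in WT libraries and rose 4.12-fold (log2 fold change 2.04, SE 0.0664, adjusted p = 0.000197). The enolases thus changed in make-up. Their sum on merged exon length was 239.8 and 261 RPKM in Smad4 KO libraries and 244 and 245 RPKM in WT libraries. Eno3 held 2.97% and 3.01% of that sum in Smad4 KO libraries and 48.6% and 49.8% in WT libraries. The largest gain in share was that of Eno1b, with 49.6% and 46.9% in Smad4 KO libraries and 12.3% and 11.7% in WT libraries. Eno1 held 47.4% and 50.0% in Smad4 KO libraries and 39.1% and 38.4% in WT libraries. On the longest transcript of each gene, the sum was 435 and 483 RPKM in Smad4 KO libraries and 416 and 415 RPKM in WT libraries. Eno3 then held 1.82% and 1.81% in Smad4 KO libraries and 31.7% and 32.6% in WT libraries. Eno1 held 69.5% and 71.6% in Smad4 KO libraries and 60.8% and 60.1% in WT libraries. Eno1b held 28.7% and 26.5% in Smad4 KO libraries and 7.54% and 7.24% in WT libraries. Which of Eno3 and Eno1 leads in WT libraries therefore depends on the length used. Of the 50-base words of Eno1b 85.2% occur in other genes, Eno1 among them, so counts of this pair are uncertain. With the counts of both added, the log2 fold change was 0.65 (adjusted p = 0.00386). Eno3 shares no 50-base word with another gene.

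**Figure D3:**
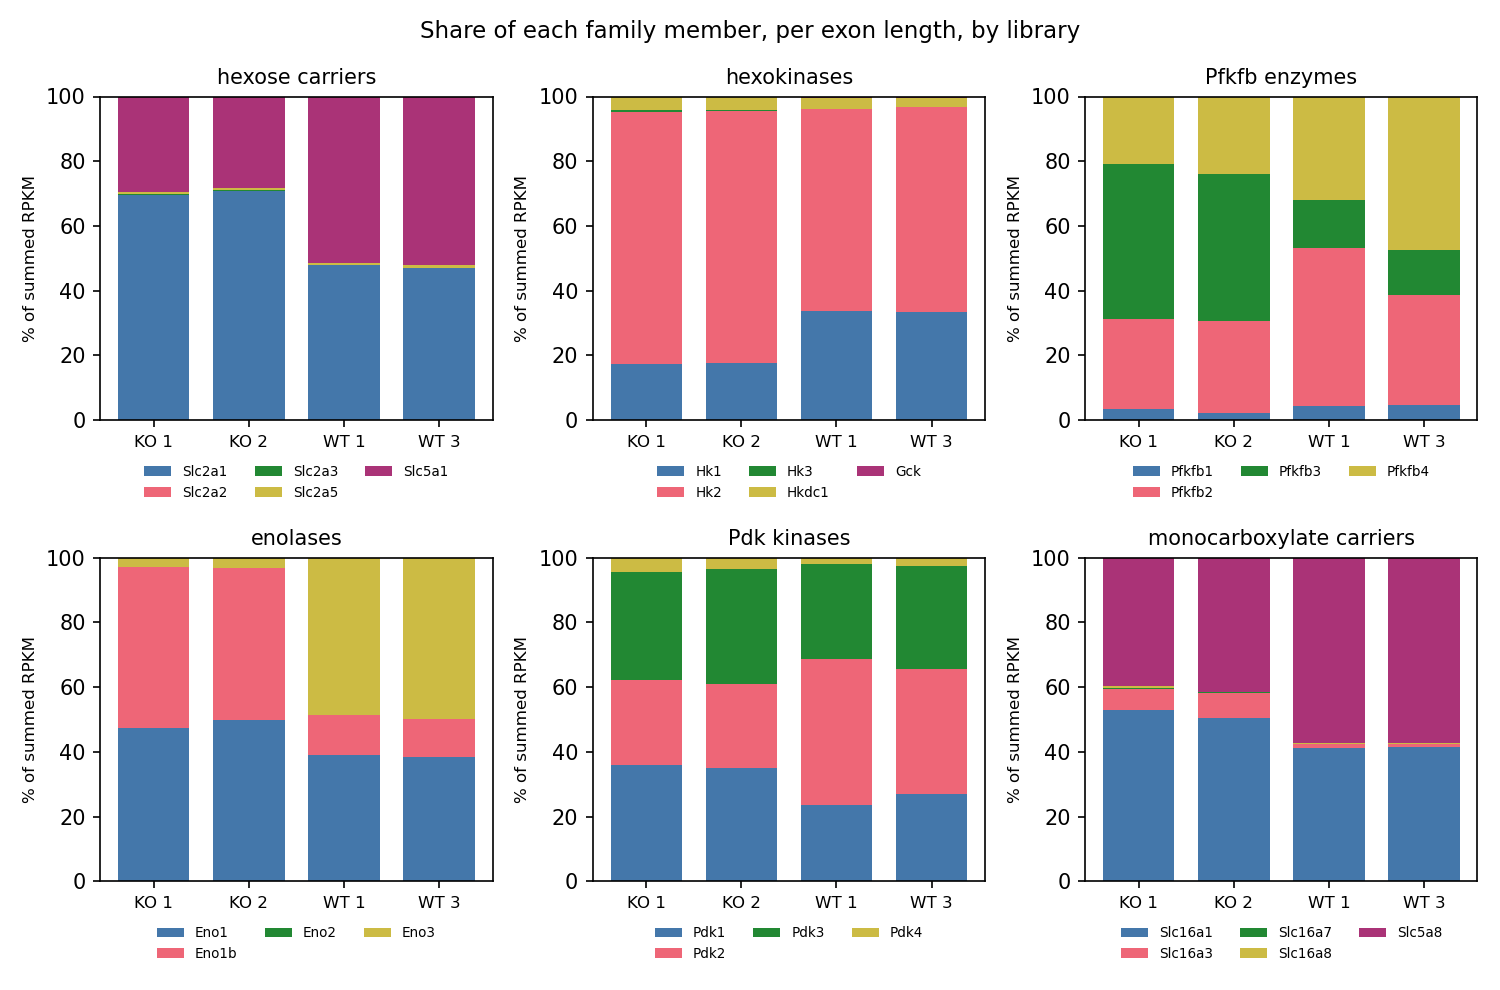
Share of each gene in the summed RPKM of its family on merged exon length, in percent, with 1 bar per library and Smad4 KO libraries left of WT libraries. Slc2a1 exceeds Slc5a1 in the Smad4 KO bars (70.3% and 29.0% on average) and lies just under it in the WT bars (47.4% and 51.7%), Pfkfb3 and Hk2 take larger shares in the Smad4 KO bars, and Eno3 makes up 2.99% of the Smad4 KO enolase bars and 49.2% of the WT ones on average.

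Of the other hexokinase genes, Hkdc1 and Hk3 rose. Hkdc1, a later-found member of the family, had 44.3 and 42.7 CPM in Smad4 KO libraries and 21.2 and 17.4 CPM in WT libraries (log2 fold change 1.17, SE 0.127, adjusted p = 0.00446). Hk3, the hexokinase of white blood cells, had 3.24 and 4.15 CPM in Smad4 KO libraries and 0.423 and 0.298 CPM in WT libraries (log2 fold change 3.34, SE 0.363, adjusted p = 0.00452), in the same direction as the neutrophil markers, whose part in it was not tested. Together, Hkdc1 and Hk3 stayed a small share of the hexokinases, at means of 4.01% and 0.475% of their summed RPKM in Smad4 KO libraries and 3.14% and 0.0818% in WT libraries.

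Among other lactate and pyruvate genes 1 of 18 rose (5.56%, beside 8.83% of all genes) and 4 fell (22.2%, beside 6.40%). Slc5a8, the sodium-coupled carrier of butyrate and lactate at the luminal membrane of the colon, had 206 and 209 CPM in Smad4 KO libraries and 493 and 512 CPM in WT libraries and fell (log2 fold change -1.28, SE 0.0548, adjusted p = 0.000312). Slc16a1, which encodes MCT1, another carrier of lactate and butyrate, had 229 and 212 CPM in Smad4 KO libraries and 295 and 309 CPM in WT libraries and fell less (log2 fold change -0.45, SE 0.0664, adjusted p = 0.0116). These changes ran opposite to that of Slc16a3, which on average made up 6.97% of the summed RPKM of the 5 monocarboxylate carriers in Smad4 KO libraries and 1.08% in WT libraries. The summed level of the 5 was 97.6 and 94.9 RPKM in Smad4 KO libraries and 162 and 168 RPKM in WT libraries. Pdp2, a phosphatase that reactivates pyruvate dehydrogenase, had 16.4 and 15.0 CPM in Smad4 KO libraries and 48.2 and 53.3 CPM in WT libraries and fell (log2 fold change -1.69, SE 0.110, adjusted p = 0.000932). A kinase and a phosphatase of the complex, Pdk2 and Pdp2, were thus both lower. Ldhd, the D-lactate dehydrogenase, rose to 32.7 and 34.1 CPM in Smad4 KO libraries, against 15.6 and 12.2 CPM in WT libraries (log2 fold change 1.27, SE 0.147, adjusted p = 0.00561).

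In hexose transport outside the members, 2 of 8 tested genes rose (25%, beside 8.83% of all genes) and 2 fell (25%, beside 6.40%). Slc2a4, the insulin-responsive GLUT4, had 0.532 and 0.390 CPM in Smad4 KO libraries and 2.66 and 3.28 CPM in WT libraries and fell (log2 fold change -2.68, SE 0.367, adjusted p = 0.00936; lost without Smad4 KO library 2), along with Slc2a8 at a log2 fold change of -0.54 (adjusted p = 0.0457). Slc2a6 at 1.20 on the same scale (adjusted p = 0.0313) and Slc5a9 at 0.49 (adjusted p = 0.0355) rose. Among glycogen and gluconeogenesis genes 2 of 15 rose (13.3%) and 3 fell (20%). Pygb, the brain-type glycogen phosphorylase, had 186 and 187 CPM in Smad4 KO libraries and 279.9 and 270.4 CPM in WT libraries and fell (log2 fold change -0.56, SE 0.0572, adjusted p = 0.00362). On the log2 scale, Pgm2, a phosphoglucomutase, rose by 0.49 (adjusted p = 0.00989), while G6pc3, the widely expressed glucose-6-phosphatase, fell by 0.40 (adjusted p = 0.0303) and Ppp1r3b, a glycogen-targeting subunit of protein phosphatase, fell by 0.51 (adjusted p = 0.0398). None of the 10 tested further genes of the pentose phosphate pathway passed: the 4 with the smallest p were Taldo1, with a log2 fold change of 0.21, Shpk with -0.49, H6pd with 0.36 and Prps1 with 0.25. Among 14 genes of fructose, galactose and polyol metabolism 1 rose (7.14%, under the share of all genes) and 3 fell (21.4%). Akr1b3, the aldose reductase of the polyol pathway, had 36.8 and 38.6 CPM in Smad4 KO libraries and 67.6 and 65.1 CPM in WT libraries and fell (log2 fold change -0.82, SE 0.0789, adjusted p = 0.00309). Galm, which interconverts the anomers of glucose and galactose, fell by 0.79 on the log2 scale (adjusted p = 0.00433). Gfpt1, the entry enzyme of the hexosamine pathway, was abundant at 1451 and 1443 CPM in Smad4 KO libraries and 1744 and 1769 CPM in WT libraries and fell by 0.28 on that scale (adjusted p = 0.0104), and Akr1b8, an aldose reductase relative, rose by 0.32 (adjusted p = 0.0412; lost on library totals at 0.0694).

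Of 21 regulators of glucose metabolism 4 rose (19%, beside 8.83% of all genes) and 4 fell (19%, beside 6.40%). Egln3, an oxygen sensor that is itself induced by hypoxia-inducible factor, had 164 and 169 CPM in Smad4 KO libraries and 75.3 and 77.8 CPM in WT libraries and rose (log2 fold change 1.13, SE 0.0650, adjusted p = 0.000684). Arrdc4, an arrestin-like gene that glucose induces and that lowers glucose uptake, had 158 and 163 CPM in Smad4 KO libraries and 108 and 111 CPM in WT libraries and rose (log2 fold change 0.55, SE 0.0625, adjusted p = 0.00521; lost without Smad4 KO library 2). Ppargc1a, a coactivator of mitochondrial and gluconeogenic genes, had 13.1 and 14.1 CPM in Smad4 KO libraries and 43 and 44.5 CPM in WT libraries and fell (log2 fold change -1.69, SE 0.102, adjusted p = 0.000751). Klf4, a factor of differentiated surface and goblet cells, fell by 0.53 on the log2 scale (adjusted p = 0.0100). The regulators that follow lie outside the rule for named genes and were chosen after their values were seen. Myc rose by 0.47 on the log2 scale (adjusted p = 0.0225). Epas1, Arnt, Egln1 and Vhl, listed like Egln3 and Hif1a for their part in the hypoxia response, did not pass. Their log2 fold changes were 0.00, 0.14, -0.06 and 0.01. Hif1a had 253 and 220 CPM in Smad4 KO libraries and 173 and 184 CPM in WT libraries. It rose (log2 fold change 0.41, SE 0.0873, adjusted p = 0.0370), but the call was lost in each of the 4 fits with 1 library left out and on library totals (adjusted p = 0.057).

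**Figure D4:**
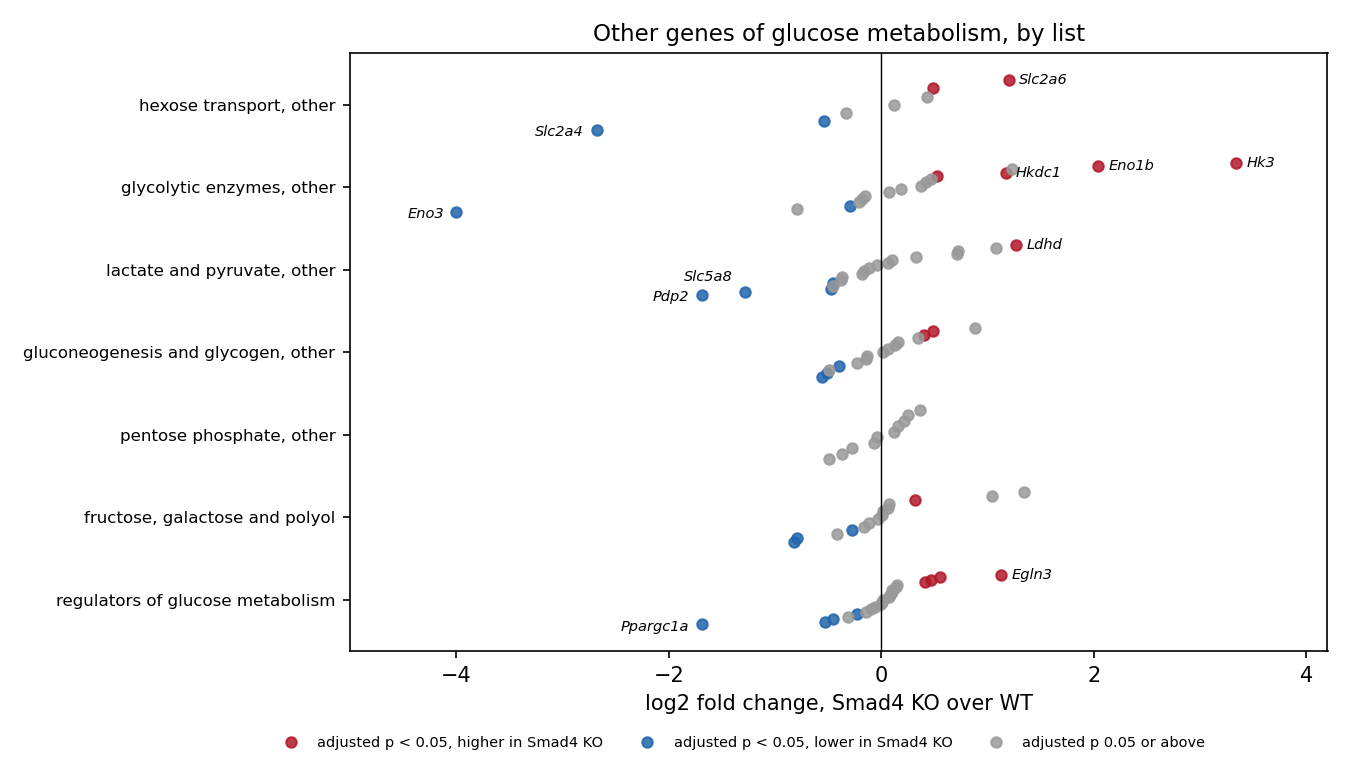
Log2 fold change of Smad4 KO over WT for the tested genes of 7 further lists of glucose metabolism, 1 point per gene and lists from top to bottom, with red points risen, blue points fallen and grey points not past edgeR's test. Slc2a12, which had no count in either WT library, is left out; Eno3 at -4.00 and Hk3 at 3.34 are the farthest points, and none of the pentose phosphate points passed.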

How the data were processed

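Gene counts from RNA sequencing of colonic epithelium of DSS-treated mice were analysed, with 2 Smad4 KO and 2 WT libraries, each built on 1.5 µg of RNA by random priming. The authors deposited whole-number counts per gene, not normalized; 0 columns were left unmapped. HISAT2 2.1.0 and StringTie 1.3.3b are among the tools named, per the submitters' processing notes, which give GRCm38 as the build. No source used here states the counting settings, the annotation release or the strandedness, so reads of antisense or near-identical genes may be misplaced.

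Symbols, positions and exon lengths came from GENCODE M21 (31207 of 31227 IDs named). edgeR 4.0.16 in R 4.3.3 was run on all genes kept by filterByExpr (15838), with TMM, genotype as the only term, glmQLFTest and Benjamini-Hochberg adjustment. The SE is the log2 fold change over the square root of F. CPM use TMM-scaled library sizes, and RPKM divide them by merged exon length. The fit was also run on simulated counts, where the only requirement was the right direction for nearly all large changes. Rises as small as those of Tpi1 and Ldha were not covered. The biological coefficient of variation was 0.196. DESeq2 1.42.0, limma-voom (limma 3.58.1), other normalizations and filters, and leaving out each library were alternatives; adding Eno1 to Eno1b was another. Named genes were all members and, from each further list, the 4 with the smallest p. The members and lists were chosen with earlier results of these data known. Of the genes listed, 1 is not reported here.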

Additional observations from a re-analysis of the deposited data

How the results depend on the processing

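The count of risen members, 10 in the main analysis, was 4 to 11 when each library was left out in turn, 7 with library totals in place of TMM and 13 with DESeq2's Wald test; the count of fallen members, 3, was 0 to 4 with a library left out. For the other pathway genes, the 14 risen became 5 to 13 and the 18 fallen 7 to 16 with a library left out. The low counts came without a Smad4 KO library (5 and 4 risen members, 0 and 1 fallen; 6 and 5 risen others, 8 and 7 fallen). Over all genes these fits called 553 and 547 risen and 425 and 428 fallen; the construction leaves 1 Smad4 KO library, assumed to vary like the WT ones. Smad4 kept its fall, at -2.01 to -1.69. Members that did not pass and changed sign were Slc2a5 (-0.54 to 0.08 over libraries left out), Pfkfb4 (-0.53 to 0.47, and 0.02 with limma-voom), Pdha1 (-0.04 to 0.08, and -0.03 on library totals) and Pgd (-0.02 to 0.08, and -0.02 on library totals); none of the 13 called members changed sign under any alternative run. The cause of these shifts was not tested. No paired analysis was possible because the genotypes share only replicate number 1. With 2 libraries per genotype, small changes of abundant enzymes stay near the threshold, and genes under about 1 CPM rest on few counts.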

Other observations

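Bsg, the chaperone that carries MCT1 and MCT4 to the membrane, had 458 and 765 CPM in Smad4 KO libraries and 742 and 402 CPM in WT libraries, so that libraries of the same genotype differed more than the genotypes did (log2 fold change 0.10, SE 0.355, adjusted p = 0.895 by edgeR). It was chosen after its values were seen. Txnip, an arrestin that limits glucose uptake and a relative of Arrdc4, had 629 and 623 CPM in Smad4 KO libraries and 576 and 593 CPM in WT libraries and did not pass edgeR's test (log2 fold change 0.10, SE 0.0482, adjusted p = 0.241), whereas Arrdc4 rose by 0.55 on the log2 scale. Slc2a12 had 0.266 and 0.540 CPM in Smad4 KO libraries, which are 16 and 36 counts, and no count in either WT library. It passed the filter on low counts through the Smad4 KO libraries alone and did not pass edgeR's test (adjusted p = 0.0549). Txnip and Slc2a12 were likewise chosen after their values were seen.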
